A study of Mus musculus with 6 samples.

Results

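The genes that make prostaglandin E2 (PGE2), break it down and receive it were examined in intestinal tumor organoids of 3 Trp53 genotypes. The group was defined by name as 9 genes of the 36172 in the deposited expression table: Pla2g4a, Ptgs1, Ptgs2, Ptges, Ptges2, Ptges3, Hpgd, Ptger2 and Ptger4. All 9 symbols were found in the table. The rule that picked them names genes and uses no expression value, although earlier results of these data were known when it was set.

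The organoids were tumor epithelial cultures of C57BL/6 mice aged 15 to 20 weeks, and every genotype carried the Apc Δ716 truncation. The study reports that such tumors lose the other Apc allele, which it showed in Trp53 +/R270H tumors. That loss was not examined in these libraries. Poly(A) RNA was sequenced from 2 libraries each of Trp53 +/+ (wild-type p53), Trp53 flox/flox and Trp53 R270H/R270H organoids, which the sample titles write as p53(+/+), p53(flox/flox) and p53(M/M). The flox allele holds a transcription stop before the R270H mutation and acts as a null allele, whereas in R270H/R270H the stop had been removed by villin-CreER, a tamoxifen-activated recombinase driven in the intestinal epithelium, so that both alleles give the missense protein. A flox/flox mouse given tamoxifen becomes R270H/R270H, so the flox/flox organoids come from mice without it, and whether +/+ mice received it is not given in the sources used here. An effect of the drug and of the missense protein therefore cannot be told apart between the mutant genotypes.

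PGE2 is made in 3 enzymatic steps. Cytosolic phospholipase A2 frees arachidonic acid from membranes, a cyclooxygenase (COX-1 from Ptgs1, or COX-2 from Ptgs2) turns it into prostaglandin H2, and a terminal synthase converts that into PGE2. The enzyme 15-hydroxyprostaglandin dehydrogenase (15-PGDH, from Hpgd) inactivates PGE2, and the receptors EP2 and EP4 (from Ptger2 and Ptger4) pass its signal on through cyclic AMP. In Apc mutant mouse intestine this route is known for its part in polyp growth, where COX-2 and EP2 were studied most. Much of the COX-2 there is made in the stroma, a compartment that organoid culture is meant to leave out. Markers of stromal cells in these libraries are given below.

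Values are read counts normalised for gene length and library depth (RPKM), which allows an approximate comparison between genes and between libraries. Results under other scalings of the libraries are given at the end. No value in the table is below 1 RPKM, so this value is called the floor here and an entry of 1 can stand for anything lower. At an estimated depth of about 47.0 M reads, 1 RPKM of Ptgs2 would be about 215 reads and 1 RPKM of Ptger2 about 244, so the floor hides expression that these libraries were deep enough to count. Of the 9 genes, 7 reached 4 RPKM in at least 1 library and entered the test, and Ptgs2 and Ptger2 did not. Pla2g4a passed through flox/flox replicate 2 alone, and Ptger4 through that library and the R270H/R270H libraries, so for these genes the filter itself favours a difference.

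Trp53 itself stood at 75.9 and 74.4 RPKM in the +/+ libraries, at 1.73 and 2.48 in the flox/flox libraries and at 72.8 and 82.7 in the R270H/R270H libraries. It was thus low only in flox/flox, whose allele the study describes as functionally null, and a gene level cannot show the missense mutation. The 7 epithelial markers were above the floor in every library, with sums between 2187 and 4166 RPKM. The flox/flox libraries stood apart from each other. Across the tested genes their log2 values correlated at 0.932, against 0.996 in +/+ and 0.993 in R270H/R270H, and the median s.d. between libraries was 0.247 on the log2 scale, against 0.046 and 0.062. Because the test pools the spread of all 6 libraries, the calls of the prostaglandin genes are given also without either flox/flox library where this changes them. Those fits called 57.1% of all genes in R270H/R270H against +/+ without either one. Without flox/flox replicate 1 they called 40.4% in flox/flox against +/+ and 53% in R270H/R270H against flox/flox, and without replicate 2 they called 68.5% and 72.3%, so a call in them is a common event. The labels do not say whether the 2 libraries of a genotype came from separate mice or tumors, so the p-values measure only the spread between these libraries. An exact test of 2 against 2 libraries cannot go below p=0.333.

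The promoters of the 3 genes on which the account below turns most are printed here. Ptgs1 had the clearest rise. Hpgd lay lower in both mutant genotypes and Pla2g4a was at the floor in R270H/R270H organoids. Neither of these lower levels was called with every library in the fit. Each line gives the 250 bases before a RefSeq transcript start (GRCm38.p6, which is mm10), 5′ to 3′ on the strand of the gene, and capitals mark matches to the motifs searched.
Ptgs1, chr2:36230176-36230425, plus strand: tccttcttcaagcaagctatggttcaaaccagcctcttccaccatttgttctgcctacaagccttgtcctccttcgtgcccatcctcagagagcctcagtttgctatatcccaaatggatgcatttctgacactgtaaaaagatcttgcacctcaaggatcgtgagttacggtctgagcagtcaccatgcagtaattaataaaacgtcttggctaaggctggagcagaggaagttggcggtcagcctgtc
Hpgd, chr8:56294302-56294551, plus strand: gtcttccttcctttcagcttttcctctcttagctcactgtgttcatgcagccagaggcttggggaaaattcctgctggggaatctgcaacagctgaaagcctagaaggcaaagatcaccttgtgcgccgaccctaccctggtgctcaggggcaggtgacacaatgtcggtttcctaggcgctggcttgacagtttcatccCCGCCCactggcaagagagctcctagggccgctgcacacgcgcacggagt
Pla2g4a, chr1:149961291-149961540, minus strand: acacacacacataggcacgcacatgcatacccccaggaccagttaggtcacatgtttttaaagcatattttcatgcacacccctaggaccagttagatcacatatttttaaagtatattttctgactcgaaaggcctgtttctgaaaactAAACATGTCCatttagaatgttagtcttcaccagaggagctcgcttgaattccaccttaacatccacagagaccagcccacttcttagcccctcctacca
The motifs, searched on both strands, were the TATA box (TATAAA), the core of the cyclic AMP response element (TGACG), the Sp1 site (GGGCGG), the AP-1 site (TGANTCA), the E box (CACGTG) and the p53 half-site. The Ptgs1 window, with 48.0% GC, held none of them, which says only that these letters are not in these 250 bases. The Hpgd window, with 56.8% GC, held an Sp1 site on the minus strand from 50 to 45 bases before the start. The Pla2g4a window, with 43.2% GC, held a p53 half-site from 100 to 91 bases before the start. A second RefSeq start of Pla2g4a, with its window at chr1:149922440-149922689, is not printed. That window held a TATA box at -200 to -195 and a p53 half-site at -67 to -58, counted in bases from the start. Among 32851 RefSeq windows of the same length, whose median GC content was 52.4%, 32.7% held the Sp1 site, 12.4% the TATA box and 7.13% a p53 half-site. A match is a description of the sequence and not a binding site. The RefSeq span of Ptgs1 begins further upstream than this start, so other starts of the gene were not searched.

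**Figure D1:**
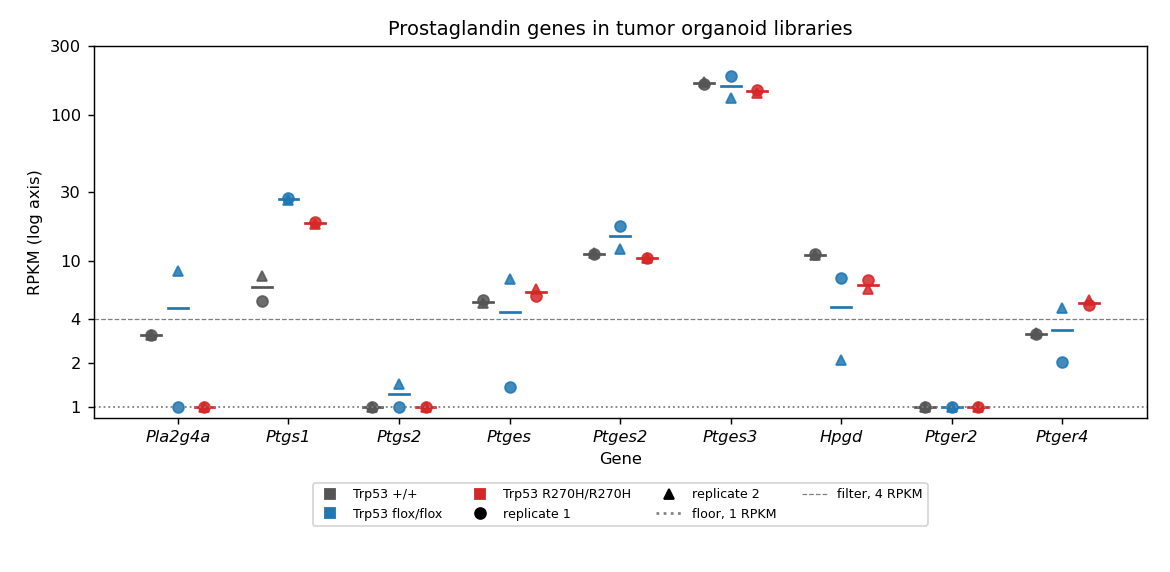
Expression of the 9 prostaglandin genes in the 6 organoid libraries, in RPKM on a log axis, with circles for replicate 1, triangles for replicate 2 and short bars for the genotype means. Ptgs1 lay higher in all 4 libraries of the mutant genotypes (18.1 to 26.955 RPKM) than in the +/+ libraries (5.33 and 7.92 RPKM), and the flox/flox libraries lay far apart for Pla2g4a, Ptges and Hpgd.

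The level of the group was set by a few genes in each genotype. Ptges3 led in all 3 genotypes, with means of 166 RPKM in +/+, 159 in flox/flox and 147 in R270H/R270H organoids. In +/+ organoids it was followed by Ptges2 (11.3 RPKM), Hpgd (11.1), Ptgs1 (6.63), Ptges (5.30), Ptger4 (3.20) and Pla2g4a (3.14). The Ptgs1 and Ptges libraries of this genotype overlapped. Ptges2 and Hpgd, and likewise Ptger4 and Pla2g4a, lay so near each other there that only the small spread of the libraries set them in order. In both mutant genotypes Ptgs1 stood second, above Ptges2, with no overlap between their libraries. Below Ptges2, Hpgd, Pla2g4a, Ptges and Ptger4 could not be put in order in flox/flox organoids, since each overlapped with the next. In R270H/R270H organoids Hpgd (6.92 RPKM) and Ptges (6.15) overlapped, Ptger4 (5.21) lay below both, and Pla2g4a, Ptgs2 and Ptger2 were at the floor.

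The first comparison, of R270H/R270H with +/+ organoids, asks how tumor cells with the missense protein differ from those with normal p53. Of the 7 tested genes limma called 1, Ptgs1, as higher and none as lower at an adjusted p under 0.05, where 5.86% of all 10042 tested genes were called higher and 6.36% lower. At an unadjusted p under 0.05 the counts were also 1 and 0. The second comparison, of flox/flox with +/+ organoids, asks the same of the loss of p53, and here too Ptgs1 was called higher and no gene lower, against 4.38% and 6.9% of all tested genes. One gene, Hpgd, was lower at an unadjusted p under 0.05 only. The third, of R270H/R270H with flox/flox organoids, sets the missense protein against the null state, and limma called 0 of the 7 genes, where 13.6% of all tested genes were called higher and 11% lower. Ptgs1 alone had an unadjusted p under 0.05 there. In the order of these 3 comparisons, 3209, 3489 and 4269 of all 10042 tested genes had such a p, in either direction. Counts at an unadjusted p, here and for the lists below, are to be read beside these. The first and second comparisons share the +/+ libraries, and each shares a mutant genotype with the third, so that the values stand side by side below and do not count as independent. Libraries that do not overlap are common in these data. Between R270H/R270H and +/+ organoids 3 of the 7 genes lay above and 4 below without overlap, beside 44.2% and 37.6% of all tested genes. Between flox/flox and +/+ organoids 2 lay above and 1 below, beside 30.6% and 33.9%, and between R270H/R270H and flox/flox organoids 1 lay above and 2 below, beside 36.8% and 31.2%.

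Pla2g4a, the cytosolic phospholipase A2 that frees arachidonic acid, was measured at 3.14 RPKM in both +/+ libraries, at the floor and 8.56 RPKM in the flox/flox libraries and at the floor in both R270H/R270H libraries. It was thus low and even in +/+ organoids and listed at the floor in R270H/R270H organoids, while one flox/flox library was the highest of the 6 and the other was at the floor. The ratio of means between +/+ and R270H/R270H organoids was at least 3.14. The fitted change, which depends on the floor and is no bound, was -1.05±0.71 (s.e.) on the log2(RPKM+1) scale, with an adjusted p of 0.369 in limma. Both R270H/R270H entries are the floor itself, so their spread is set by the floor and was not measured. Without flox/flox replicate 2 no remaining library reached 4 RPKM, yet the gene was kept in that fit. No conclusion is drawn from the calls without a flox/flox library that follow. Without either flox/flox library the adjusted p was 0.000447 (without replicate 1) or 0.000393 (without replicate 2), beside the 57.1% of all genes called there. Between flox/flox and +/+ organoids the change was 0.08±0.71, and it was 1.21 (called higher, adjusted p=0.00111) without flox/flox replicate 1 and -1.05 (called lower, adjusted p=0.000463) without replicate 2, so that its direction rested on which of these libraries was kept. For R270H/R270H against flox/flox it was -2.26 (called lower, adjusted p=0.0002) without flox/flox replicate 1 and 0.00 without replicate 2, where both genotypes were at the floor.

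Ptgs1, which encodes COX-1, the cyclooxygenase that many tissues make constantly, was measured at 5.33 and 7.92 RPKM in +/+ organoids, at 26.955 and 26.4 RPKM in flox/flox organoids and at 18.6 and 18.1 RPKM in R270H/R270H organoids. All 4 libraries of the mutant genotypes lay above both +/+ libraries, and the flox/flox libraries lay above the R270H/R270H libraries. The means were 6.63±1.82, 26.7±0.389 and 18.4±0.371 RPKM (s.d., n=2 each). The mean of R270H/R270H organoids was 2.77 times that of +/+ organoids, with a log2 fold change of 1.37±0.18 (s.e.), a 95% interval from 0.91 to 1.82 and an adjusted p of 0.0146 in limma. That of flox/flox organoids was 4.03 times the +/+ mean, with a log2 fold change of 1.88±0.18, an interval from 1.43 to 2.33 and an adjusted p of 0.0105. The difference between the mutant genotypes themselves, -0.52±0.18, had an adjusted p of 0.0893 and an interval from -0.97 to -0.06, so that a higher level without p53 than with the missense protein did not pass the test after adjustment. Unlike most genes of the group, Ptgs1 was nearly the same in the flox/flox libraries, and its spread was widest in +/+. The rise against +/+ organoids remained called without either flox/flox library, with adjusted p values of 0.00333 and 0.00335 for R270H/R270H and of 0.00456 and 0.00152 for flox/flox. Those fits called a large share of all genes, as given above, so a kept call adds little. The call was lost in both comparisons when any +/+ or R270H/R270H library was left out. Few genes or none were called at all in those fits, so the lost call says little of Ptgs1 itself. The log2 fold change there lay between 1.12 and 1.61 for R270H/R270H and between 1.63 and 2.13 for flox/flox.

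Ptgs2, the gene of COX-2, the cyclooxygenase that is induced by growth factors and cytokines, was listed at the floor in 5 libraries and at 1.45 RPKM in flox/flox replicate 2. It gave no comparison. It lies 138.7 kb from Pla2g4a on chromosome 1, at 150100031 to 150108234 against 149829618 to 149961290 (GRCm38.p6), with 2 noncoding genes, Gm19136 and Ptgs2os, annotated between them and 0 coding genes. The single library with Ptgs2 above the floor was the one with the highest Pla2g4a.

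With all 6 libraries in the fit, none of the terminal synthases was called, and each was called in some fits without a flox/flox library. Ptges, the inducible microsomal PGE synthase, was measured at 5.41 and 5.19 RPKM in +/+, at 1.37 and 7.61 RPKM in flox/flox and at 5.78 and 6.51 RPKM in R270H/R270H organoids. The flox/flox libraries enclosed all the others, one near the floor and one above all. Its log2 fold changes were 0.18±0.59 for R270H/R270H (adjusted p=0.867 in limma) and -0.48±0.59 for flox/flox (adjusted p=0.579) against +/+, and the second was 0.45 (called higher, adjusted p=0.0227) without flox/flox replicate 1 and -1.41 (called lower, adjusted p=0.000523) without replicate 2. For R270H/R270H against flox/flox it was -0.27 (adjusted p=0.0695) and 1.59 (called higher, adjusted p=0.000368) in these fits. Ptges2, a membrane-associated synthase, was measured at 11.2 and 11.3, at 17.4 and 12.2, and at 10.5 and 10.6 RPKM in the same order of genotypes. Both flox/flox libraries lay above all the others, with a log2 fold change of 0.35±0.17 against +/+ (adjusted p=0.218) and of -0.43±0.17 for R270H/R270H against flox/flox (adjusted p=0.123). Without flox/flox replicate 2 these were 0.59 (adjusted p=0.00182) and -0.67 (adjusted p=0.00111), and without replicate 1 they were 0.11 and -0.19 and not called. Ptges3 encodes p23, better known as a cochaperone of Hsp90 than as a synthase, and was measured at 163 and 169, at 186 and 132, and at 150 and 143 RPKM. Its R270H/R270H libraries lay below the +/+ libraries by little, with a log2 fold change of -0.18±0.18 and an interval from -0.63 to 0.28 (adjusted p=0.547). This change was called lower without either flox/flox library (adjusted p=0.0387 and 0.0394), at the same size. Against +/+, flox/flox was at -0.32 without its replicate 1 (called lower, adjusted p=0.0179) and at 0.16 without replicate 2 (adjusted p=0.0739). For R270H/R270H against flox/flox it was called, at -0.34, only without replicate 2 (adjusted p=0.00715).

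Hpgd, the gene of the PGE2-inactivating dehydrogenase, was measured at 11.2 and 11.1 RPKM in +/+ organoids, at 7.67 and 2.10 RPKM in flox/flox organoids and at 7.40 and 6.44 RPKM in R270H/R270H organoids. All 4 libraries of the mutant genotypes lay below both +/+ libraries, and the flox/flox libraries lay on either side of the R270H/R270H libraries. The +/+ mean was 1.60 times that of R270H/R270H and 2.27 times that of flox/flox organoids. Neither difference passed the test, with log2 fold changes of -0.61±0.47 (95% interval from -1.81 to 0.59, adjusted p=0.43 in limma) and -1.22±0.47 (from -2.42 to -0.02, adjusted p=0.139). Left without flox/flox replicate 1, the R270H/R270H change kept its size and had an adjusted p of 0.00416, and without replicate 2 of 0.00406, beside the 57.1% of all genes called there. For flox/flox against +/+ the change was -1.97 without flox/flox replicate 1 (adjusted p=0.000908, where 40.4% of all genes were called) and -0.48 without replicate 2 (adjusted p=0.0111, where 68.5% were called). For R270H/R270H against flox/flox it was 1.35 (called higher, adjusted p=0.00111) without flox/flox replicate 1 and -0.13 (adjusted p=0.286) without replicate 2.

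Ptgs1 and Hpgd were thus the genes of the group for which both mutant genotypes lay on the same side of +/+ without overlap, 1 of 7 above and 1 of 7 below, where this held for 15.6% and 17.1% of all tested genes. As a description, the ratio of Ptgs1 to Hpgd in RPKM was 0.48 and 0.72 in the +/+ libraries, 3.51 and 12.6 in the flox/flox libraries and 2.52 and 2.81 in the R270H/R270H libraries. Because Ptgs1 lay above +/+ and Hpgd below, a higher ratio in every mutant library follows from the values already given. It is no further result.

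Among the receptors, Ptger2, the gene of EP2, was listed at the floor in all 6 libraries. Ptger4, the gene of EP4, was measured at 3.18 and 3.21 RPKM in +/+ organoids, at 2.04 and 4.76 RPKM in flox/flox organoids and at 4.99 and 5.43 RPKM in R270H/R270H organoids. Both R270H/R270H libraries lay above the other 4. The mean was 1.63 times that of +/+ organoids, with a log2 fold change of 0.56±0.31 (95% interval from -0.22 to 1.35) and an adjusted p of 0.277 in limma. Without flox/flox replicate 1 the adjusted p was 0.00319 and without replicate 2 it was 0.00307, beside the 57.1% of all genes called there. Against flox/flox organoids the change was 0.57±0.31 (adjusted p=0.215), and it was 0.11 (adjusted p=0.322) without flox/flox replicate 1 and 1.03 (called higher, adjusted p=0.000632) without replicate 2. Between flox/flox and +/+ organoids no change was fitted with all libraries (-0.00±0.31), but it was 0.46 (called higher, adjusted p=0.0152) without flox/flox replicate 1 and -0.46 (called lower, adjusted p=0.0068) without replicate 2.

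**Figure D2:**
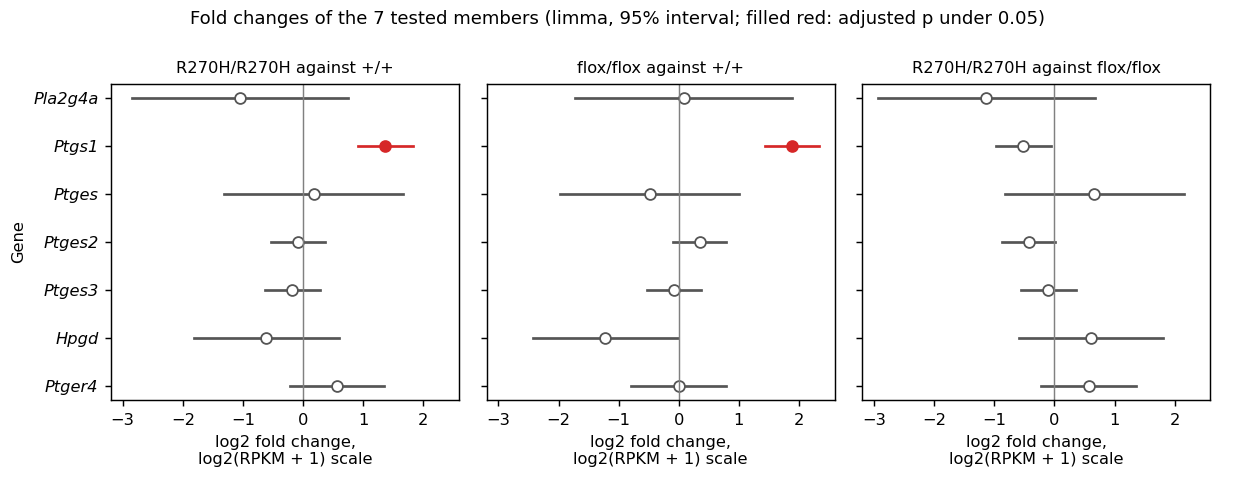
Log2 fold changes on the log2(RPKM+1) scale of the 7 tested prostaglandin genes in the 3 comparisons, with points for the limma estimates, lines for their 95% intervals and red for an adjusted p under 0.05. Ptgs1 is red in both comparisons with +/+ (1.37 and 1.88), and the intervals of Pla2g4a, Ptges and Hpgd are the widest.

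The study selected genes elevated more than 2-fold in R270H/R270H over +/+ organoids. Here a 2-fold difference of genotype means was read in both directions and in every comparison. Of the 9 genes, 2 differed between R270H/R270H and +/+ organoids, Ptgs1 higher and Pla2g4a lower. Beside this, 4.38% and 6.09% of all tested genes were higher and lower. The 9 include Ptgs2 and Ptger2, which are not among the tested genes. Between flox/flox and +/+ organoids 2 differed, Ptgs1 higher and Hpgd lower, against 4.54% and 6.49% of all tested genes. Between R270H/R270H and flox/flox organoids Pla2g4a alone was lower and no gene was higher, where 7.51% and 7.88% of all tested genes were, although its libraries overlapped. When every library of a genotype had to be 2-fold from every library of the other, Pla2g4a no longer differed between the mutant genotypes and Hpgd no longer differed between flox/flox and +/+, since 1 Hpgd library of flox/flox lay nearer to +/+.

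The wider eicosanoid genes, those of the other prostanoid synthases and receptors, prostaglandin transport and reduction, further phospholipases and leukotriene enzymes, were taken as a list of 36. Of these, 15 were at the floor in all 6 libraries and 16 passed the filter. In R270H/R270H against +/+ organoids limma called 3 of the 16 lower and 0 higher (0 also at an unadjusted p under 0.05), beside 6.36% and 5.86% of all tested genes, with a median log2 fold change of -0.27 against 0.03 over all genes. In flox/flox against +/+ organoids limma called 4 lower and 0 higher (2 at an unadjusted p under 0.05), beside 6.9% and 4.38%, with a median of -0.54 against -0.02. Between the mutant genotypes 1 was called higher and 1 lower, beside 13.6% and 11%, with a median of -0.09 against 0.03. Of the called genes Cbr3 and Pla2g4c passed the filter through +/+ libraries alone, so they could enter the test only by being higher there.

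Cbr1, a carbonyl reductase that turns PGE2 into PGF2α, was called in all 3 comparisons. It was measured at 62.3 and 66.4 RPKM in +/+, at 34.3 and 32.0 in flox/flox and at 22.4 and 23.5 in R270H/R270H organoids, with no overlap between any genotypes. Its log2 fold changes were -1.45±0.10 for R270H/R270H (adjusted p=0.00367 in limma) and -0.94±0.10 for flox/flox against +/+ (adjusted p=0.0127), and -0.51±0.10 between the mutant genotypes (adjusted p=0.0241). These calls were kept in 13, 9 and 8 of 16 alternatives, and the last was lost with a replicate block (adjusted p=0.0637) and with only the 2 genotypes compared (adjusted p=0.0962). Cbr3, a related reductase, was measured at 8.30 and 9.76 RPKM in +/+, at the floor and 3.29 in flox/flox and at the floor in both R270H/R270H libraries. It was at least 9.03 times higher in +/+ than in R270H/R270H organoids and was called lower in both mutant genotypes (adjusted p=0.0232 for R270H/R270H and 0.0431 for flox/flox, in 11 and 7 of 16 alternatives). As given above, Cbr3 could enter the test only by being higher in +/+, and its R270H/R270H spread is set by the floor. Abcc4, the transporter MRP4, which exports prostaglandins from cells, was measured at 37.4 and 36.1 RPKM in +/+, at 11.9 and 24.5 in flox/flox and at 10.2 and 9.94 in R270H/R270H organoids. It was the third called gene in R270H/R270H against +/+, at -1.77±0.32 (adjusted p=0.0301, called in 11 of 16 alternatives), while its change in flox/flox, -1.06±0.32, had an adjusted p of 0.0897. Without flox/flox replicate 1 that change was -0.56 (adjusted p=0.00495) and without replicate 2 it was -1.55 (adjusted p=0.000279).

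The other called genes of this list belonged to flox/flox. Ptgr2, a reductase of 15-keto prostaglandins, which are the product of 15-PGDH, was measured at 18.2 and 19.7 RPKM in +/+, at 11.9 and 12.7 in flox/flox and at 17.7 and 17.1 in R270H/R270H organoids. It was lower in flox/flox than in +/+ (-0.58±0.10, adjusted p=0.0315 in limma) and higher in R270H/R270H than in flox/flox organoids (0.47±0.10, adjusted p=0.0315), each in 8 of 16 alternatives. Pla2g4c, a further cytosolic phospholipase, was at 2.89 and 4.56 RPKM in +/+, at the floor in both flox/flox libraries and at 1.77 and 1.88 in R270H/R270H organoids, and was called lower in flox/flox against +/+ (adjusted p=0.0314, in 8 of 16 alternatives), a ratio of at least 3.72. Each call named for this list was also made without either flox/flox library. Those fits called a large share of all genes, as given above, so this adds little. As a description, both mutant genotypes lay below +/+ without overlap for Abcc4, Ptgr1, Ptgr2, Cbr1, Cbr3, Pla2g4c, Pla2g5 and Pla2g12a, 2 of which had passed the filter through +/+ alone, and both lay above for Akr1b3. These were 8 and 1 of the 16 tested genes of the list, where this held for 17.1% and 15.6% of all tested genes.

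Some genes of the list that were not called had flox/flox libraries far apart, and 2 are given because their levels were high. They were chosen after their values were seen. Ptgr1, another prostaglandin reductase, was measured at 135 and 151, at 18.7 and 108, and at 92.4 and 95.2 RPKM in the order of genotypes used above. Pla2g2a, a secreted phospholipase whose gene is known to carry a frameshift in C57BL/6 mice, was measured at 228 and 205, at 10.6 and 90.8, and at 264 and 250 RPKM. Neither was called in any comparison.

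Below the receptors, a list of 20 genes of the stimulatory G protein and cyclic AMP route had 12 that passed the filter. In R270H/R270H against +/+ organoids limma called 0 of them (3 at an unadjusted p under 0.05), beside 5.86% of all tested genes called higher and 6.36% lower, with a median log2 fold change of 0.12 against 0.03 over all genes. Arrb1, the receptor adaptor β-arrestin 1, was measured at 6.33 and 6.99 RPKM in +/+, at 3.05 and 3.11 in flox/flox and at 6.90 and 6.80 in R270H/R270H organoids. It was called lower in flox/flox than in +/+ (-0.91±0.12, adjusted p=0.0177 in limma) and higher in R270H/R270H than in flox/flox organoids (0.95±0.12, adjusted p=0.00913), in 8 and 10 of 16 alternatives. Prkacb, a catalytic subunit of protein kinase A, was at 14.5 and 13.7, at 9.32 and 11.5, and at 15.5 and 14.8 RPKM, and was called higher in R270H/R270H than in flox/flox organoids (0.51±0.13, adjusted p=0.0437, in 7 of 16 alternatives). Both genes kept these calls without either flox/flox library, in fits that called a large share of all genes. In that comparison 2 of the 12 were thus called higher and 0 lower (0 also at an unadjusted p under 0.05), beside 13.6% and 11% of all tested genes, and in flox/flox against +/+ 1 was called lower and 0 higher (2 at an unadjusted p under 0.05), beside 6.9% and 4.38%. The other 10 tested genes, Gnas and the cyclic AMP response factor Creb1 among them, were not called. The median of the list was 0.16 between the mutant genotypes and -0.15 in flox/flox against +/+, beside 0.03 and -0.02 over all genes.

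**Figure D3:**
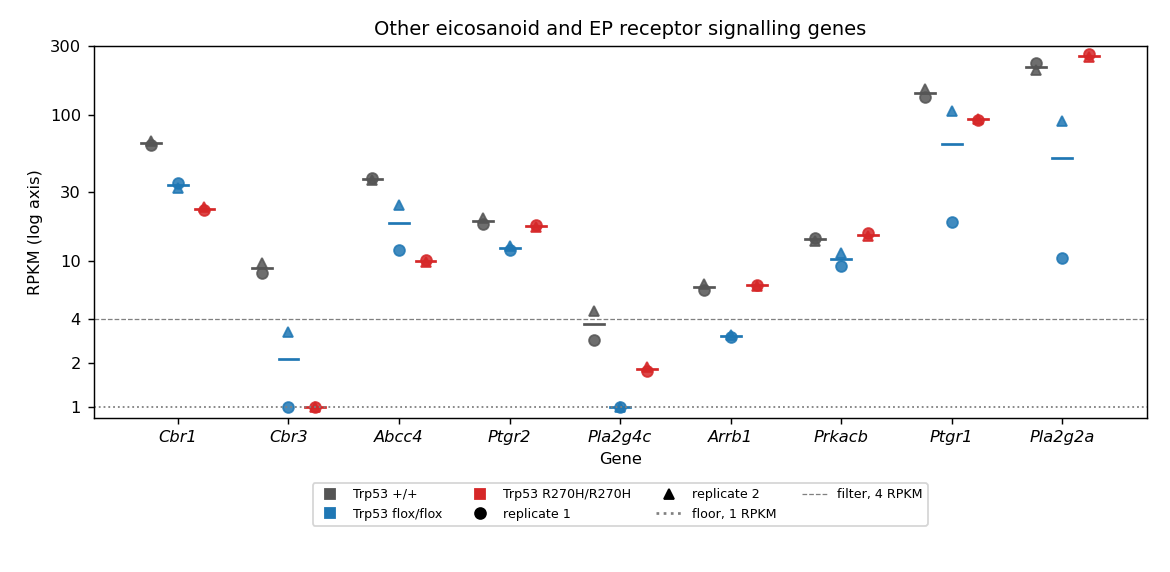
Expression of 9 other eicosanoid and receptor signalling genes in the 6 organoid libraries, in RPKM on a log axis, with circles and triangles for replicates 1 and 2 and short bars for the genotype means. Cbr1 fell from 62.3 and 66.4 RPKM in +/+ to 22.4 and 23.5 RPKM in R270H/R270H, Arrb1 was low in flox/flox alone, and Ptgr1 and Pla2g2a differed widely between the flox/flox libraries.

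Markers of other cell types were read beside these values, since in bulk RNA fewer cells of a type and less RNA per cell cannot be told apart. Tuft cells, a chemosensory cell of the intestinal epithelium, are known to hold Ptgs1. Of 8 tuft cell markers 6 were at the floor in all libraries, Dclk1 and Trpm5 among them. The summed level of the list was 26.8 and 29.6 RPKM in +/+, 8 and 40.5 in flox/flox and 41.9 and 38.6 in R270H/R270H organoids. Each floor entry counts as 1 in it, and the rest was nearly all Avil. In flox/flox replicate 1 all 8 were at the floor and Ptgs1 was at 26.955 RPKM, while the other 3 libraries of the mutant genotypes had higher sums than +/+. The part of these cells in the Ptgs1 values was not tested. Enterocytes are known to hold Hpgd. Of 8 enterocyte markers 4 were above the floor in any library and 4, Apoa1, Apoa4, Sis and Lct, in none. Their sum was 65.1 and 70.9 RPKM in +/+, 26.1 and 29.9 in flox/flox and 43.3 and 35.5 in R270H/R270H organoids. It was thus lower in all 4 mutant libraries, as Hpgd was, and its part in the Hpgd values was not tested. Its members did not move together. In R270H/R270H organoids Fabp2 (12.1 and 10.8 RPKM against 27.6 and 31.4 in +/+) and Anpep (9.52 and 11.98 against 24.8 and 20.1) made up the lower sum, while the Fabp1 mean was above that of +/+ (6.63 against 4.29) and the Alpi libraries overlapped with +/+. Alpi, intestinal alkaline phosphatase, was called lower in flox/flox than in +/+ (-2.05±0.43, adjusted p=0.0426 in limma). In R270H/R270H against flox/flox organoids Alpi (1.86±0.43, adjusted p=0.0351) and Fabp1 (1.80±0.31, adjusted p=0.0193) were called higher.

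Of 9 fibroblast markers Col1a2, Col3a1 and Lum were at the floor throughout. The sum was mostly Vim except in flox/flox replicate 2, where Vim gave 19.8 of 40.41 RPKM. Vim was measured at 69.0 and 50.0 RPKM in +/+, at 71.6 and 19.8 in flox/flox and at 306 and 284 in R270H/R270H organoids, and was called higher in R270H/R270H than in flox/flox organoids (2.93±0.58, adjusted p=0.0261 in limma). Flox/flox replicate 2 had 6 of the 9 above the floor, with Acta2 at 11.5 RPKM and Col1a1 at 2.44, where the other libraries had 1 or 2. This was also the library with the highest Pla2g4a and Ptges and the sole library with Ptgs2 above the floor, and the part of those markers in these values was not tested. Of 7 leukocyte markers Ptprc, Csf1r, Adgre1 and Itgam were at the floor throughout. The sums ran from 10.03 to 35.74 RPKM, in which each floor entry counts as 1. Cd68 and Cd14 were above the floor in every library, and Lyz2 in flox/flox replicate 2 alone (5.67 RPKM). Cd14 was called lower in R270H/R270H than in +/+ (adjusted p=0.00432 in limma) and in flox/flox organoids (adjusted p=0.00413). Of 3 endothelial markers Pecam1 and Kdr were at the floor throughout. Cdh5 was at 8.88 and 9.35 RPKM in +/+, at the floor and 3.30 in flox/flox and at 1.04 and the floor in R270H/R270H organoids, and was called lower in both mutant genotypes (adjusted p=0.0224 for R270H/R270H and 0.0411 for flox/flox). Like Cbr3, it passed the filter through +/+ alone. The part of these markers in the values of the other genes was not tested. Of the 7 epithelial markers Krt19 was called higher in flox/flox and lower in R270H/R270H than in +/+ organoids (0.84±0.17, adjusted p=0.0411, and -0.78±0.17, adjusted p=0.0469). Krt8 was called higher in flox/flox than in +/+ (adjusted p=0.0329), and Krt8, Krt18 and Krt19 were called lower in R270H/R270H than in flox/flox organoids.

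**Figure D4:**
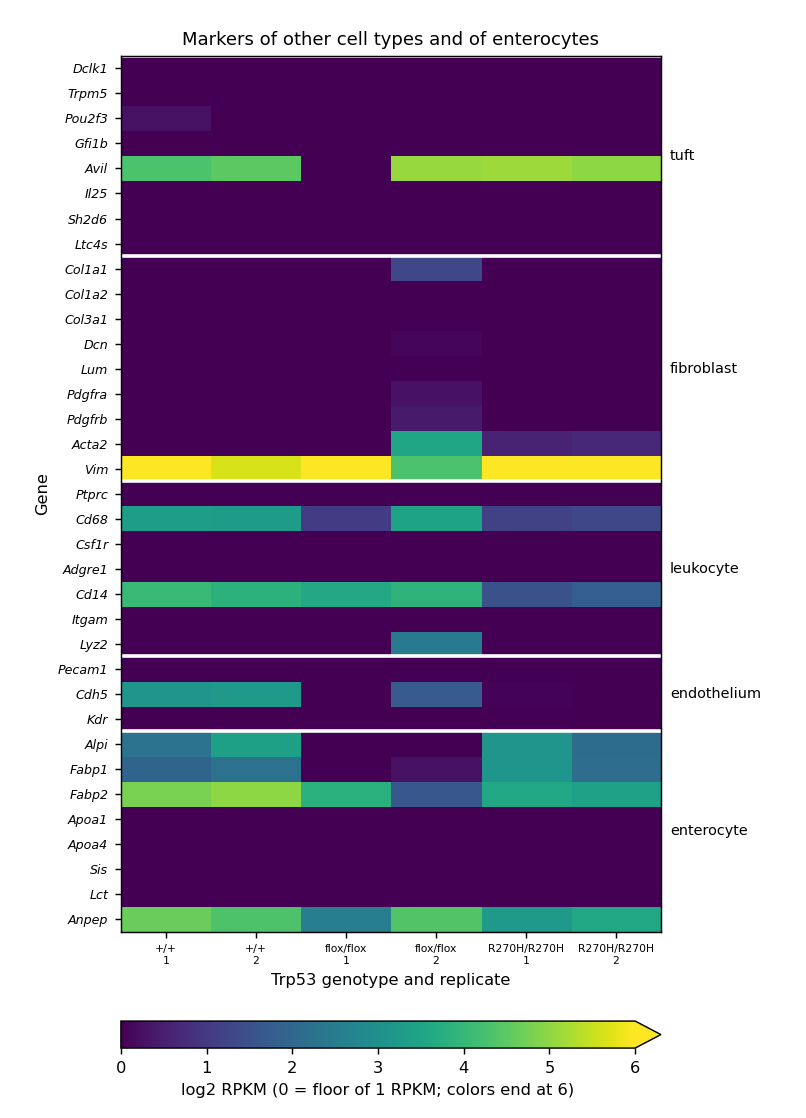
Log2 RPKM of markers of tuft cells, fibroblasts, leukocytes, endothelium and enterocytes in the 6 organoid libraries, where dark cells stand for the floor of 1 RPKM and colors end at 6. Most defining markers of the other cell types are at the floor, Avil is above it in 5 libraries, and flox/flox replicate 2 has 6 of 9 fibroblast markers above it.

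The pattern of Ptgs1 over the 6 libraries was most like that of Dbf4 (Pearson r=0.994 of log2(RPKM+1)), Nudcd3 (0.991), Eftud2 (0.989), Fam111a (0.989) and Tnfaip1 (0.987). With 6 libraries in 3 genotypes, many genes reach a high r, and these values only describe how closely the levels ran together over these libraries. Of the 5, Fam111a, whose protein takes part in DNA replication, came nearest to it in level as well. It was measured at 6.65 and 7.24 RPKM in +/+, at 28.0 and 26.4 in flox/flox and at 19.7 and 20.5 in R270H/R270H organoids. Dbf4, the regulatory subunit of the Cdc7 kinase, ran from 24.5 and 25.2 RPKM in +/+ to 31.5 and 31.0 in flox/flox, a much smaller span. On chromosome 2, which carries Ptgs1 at 36216742 to 36258593, the median log2 difference of all tested genes from the +/+ mean lay between -0.12 and 0.08 in the 4 mutant libraries.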

How the data were processed

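Poly(A) RNA of 6 libraries (3 genotypes, 2 libraries each) was examined. Reads had been aligned to mm10 by the authors, who computed one RPKM value per gene and library in StrandNGS. The version, annotation and filters of that step are not given in the sources used here. The deposited RPKM table holds 36172 genes, no value below 1 and no counts, and 23760 genes are at 1 in every library. All library columns were used. Ratios against a group at this floor are lower bounds.

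Depth was estimated from the steps of 1 read between RPKM values of RNA genes under 230 nt, to a tolerance of 0.05 reads. It was 44.2 to 48.5 M reads, where the flox/flox replicate 1 value rests on 7 genes of which 4 gave whole reads. The 10042 genes that reached 4 RPKM in any library were fitted as log2(RPKM+1) in limma 3.58.1 (R 4.3.3, lmFit and eBayes with trend=TRUE) over all 6 libraries without a block. Tests were two-sided with Benjamini-Hochberg adjustment over all tested genes at 0.05. Fold changes on this scale understate those of low genes. Tables and figures were made in Python 3.11.15 with pandas 2.3.3, numpy 2.4.6 and matplotlib 3.10.9. The code was tested on simulated data.

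Genes were matched by symbol, and by identifier or older symbol for a few list genes. Promoters and positions come from RefSeq tables of GRCm38.p6, where all 9 members were found, and exon lengths for reads at 1 RPKM from GENCODE. Every member is named, and of the wider eicosanoid and receptor signalling lists every gene called in at least 1 comparison. Likeness was ranked for the called member over the tested genes. Members, lists and tests were chosen with earlier results of these data known.

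The alternatives were a pseudocount of 0.1, a filter of 1.5 RPKM or none, median-of-ratios and upper-quartile scaling, weights by genotype, fits of only the 2 genotypes compared, no trend, a replicate block and leaving out each library. Replicate numbers come from the titles.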

Additional observations from a re-analysis of the deposited data

How the results depend on the processing

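The counts of called genes depended strongly on how the spread was estimated, and they moved with the share of all genes called, while the direction of Ptgs1 held in every alternative. Against +/+, Ptgs1 was called in 11 of 16 alternatives for R270H/R270H (log2 fold change 1.12 to 1.61, adjusted p from 0.000379 to 0.176 in limma) and in 9 of 16 for flox/flox (1.63 to 2.13, adjusted p from 0.00152 to 0.112). Between the mutant genotypes it was called in 0 of 16 (-0.55 to -0.40, adjusted p from 0.0711 to 0.533).

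For R270H/R270H against +/+, the share of all genes called was 1.18% without a filter, 59.6% with weights by genotype, 57% with only the 2 genotypes compared and 57.1% without either flox/flox library. It was 1.13% without R270H/R270H replicate 2, and 0 of 10042 genes were called in limma without +/+ replicate 1, +/+ replicate 2 or R270H/R270H replicate 1 (1561, 1470 and 1578 at an unadjusted p under 0.05), so the counts of 0 in those fits say nothing of the lists. For R270H/R270H against flox/flox the shares were 2.07% without a filter, 5.32% with weights, 3.76% with only the 2 genotypes compared, 53% and 72.3% without flox/flox replicate 1 and 2, and 1.65% to 3.74% without another library. For flox/flox against +/+ they were 0.202%, 1.49%, 0.468%, 40.4% and 68.5%, and 0.0797% to 0.368%. The following counts are to be read beside these shares and are no result about a list.

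Of the prostaglandin genes, R270H/R270H against +/+ gave 0 without a filter, 5 with weights, 5 with only the 2 genotypes compared and 0 to 5 with a library left out, 5 being without either flox/flox library. Flox/flox against +/+ gave 0, 0, 0 and 0 to 6, 6 being without either flox/flox library, and R270H/R270H against flox/flox gave 0 to 4 with a library left out. By the rule of 2-fold means, R270H/R270H against flox/flox gave 0 when every pair had to differ and 1 to 2 with a library left out, and flox/flox against +/+ gave 1 and 2 to 3. Of the wider eicosanoid list, R270H/R270H against +/+ gave 1 without a filter, 9 with weights, 10 with only the 2 genotypes compared and 0 to 10 with a library left out. Against flox/flox it gave 0, 1, 0 and 0 to 12, and flox/flox against +/+ gave 0, 0, 0 and 0 to 13. Of the receptor signalling list, R270H/R270H against +/+ gave 1 at 1.5 RPKM (where 15.3% of all genes were called), 1 without a filter, 6 with weights, 6 with only the 2 genotypes compared and 0 to 6 with a library left out. Against flox/flox it gave 5 at 1.5 RPKM (25.6% of all genes), 0 with weights, 0 with only the 2 genotypes compared and 0 to 9, and flox/flox against +/+ gave 0 without a filter, 0 with weights, 0 with only the 2 genotypes compared and 0 to 11. The highest count in each range came without a flox/flox library. Leaving out 1 library leaves that genotype with 1, which is then assumed to vary like the others.

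Deviations of same-numbered libraries correlated at 0.12 between +/+ and flox/flox, -0.29 between +/+ and R270H/R270H and -0.20 between flox/flox and R270H/R270H, so the numbers were not taken to pair the libraries. Taking the replicate number as a block left 1, 0 and 1 prostaglandin genes called for R270H/R270H against +/+, R270H/R270H against flox/flox and flox/flox against +/+, where 5.48%, 11.5% and 2.79% of all genes were called. The block gave 0 genes of the wider list for R270H/R270H against flox/flox and 1 for flox/flox against +/+, and of the signalling list 1 and 0. Exchanging the R270H/R270H numbers in the block, an alternative chosen after seeing the data, gave 1 of the signalling list for R270H/R270H against flox/flox.

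These directions turned. Pla2g4a in flox/flox against +/+ was -0.07 at a pseudocount of 0.1, and it ran from -1.05 without flox/flox replicate 2 to 1.21 without replicate 1. Ptges ran from -1.41 (without flox/flox replicate 2) to 0.45 (without replicate 1) in flox/flox against +/+, and from -0.27 (without replicate 1) to 1.59 (without replicate 2) in R270H/R270H against flox/flox. Ptges3 in R270H/R270H against flox/flox was 0.02 with upper-quartile scaling and ran from -0.34 (without flox/flox replicate 2) to 0.15 (without replicate 1), and in flox/flox against +/+ from -0.32 (without replicate 1) to 0.16 (without replicate 2). Hpgd in R270H/R270H against flox/flox ran from -0.13 without flox/flox replicate 2 to 1.35 without replicate 1. Ptger4 in flox/flox against +/+ stood at -0.00, and was 0.46 without flox/flox replicate 1 and -0.46 without replicate 2. Arrb1 in R270H/R270H against +/+ was -0.02 without +/+ replicate 1. The cause was not tested. Upper-quartile scaling moved the median of all genes to 0.14 for R270H/R270H against flox/flox and to -0.11 for flox/flox against +/+. The floor hides all values under 1 RPKM, and 2 libraries a genotype limit the precision.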
